A study of Homo sapiens with 4 samples.

Results

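The HOX genes of the HOXA, HOXB, HOXC and HOXD clusters were examined in PC3, an androgen-independent human line grown from a prostate carcinoma's metastasis in bone. The members were the probe sets that the platform table assigned to exactly 1 of 38 listed HOX genes. The table gave 44 such probe sets for 28 genes, out of 54613 probe sets and 19775 genes in all. They covered all 10 listed HOXB genes, all 9 HOXC genes, 8 of 9 HOXD genes and 1 of 10 HOXA genes, HOXA2. The other 9 HOXA genes and HOXD3 were not analysed here. In the study, 2 arrays held RNA of PC3 cells transfected with siRNA that targets COUP-TFII (a transcription factor of the nuclear receptor family with no settled natural ligand), and 2 held RNA of PC3 cells transfected with a control siRNA. Both siRNAs were used at 40 nM in this 1 line, kept in RPMI medium with fetal bovine serum, and RNA was taken at 48 h. The labels do not say whether the replicates were separate transfections, so the p-values reflect the scatter of these 4 arrays alone, and that scatter may be technical. The targeted transcript is not analysed here, so the labels were not checked against it.

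HOX genes encode homeodomain transcription factors that give cells their position along the body axis. They lie in 4 clusters, in which genes with low numbers act toward the head and genes with high numbers toward the tail, and genes with the same number in different clusters are paralogues. Most bind DNA together with TALE cofactors of the PBX and MEIS families. Polycomb complexes keep the clusters silent and trithorax complexes keep them active. In the prostate, the posterior members, above all HOXB13, mark the urogenital origin of the epithelium.

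The arrays resembled each other closely. Their medians lay between 31.7 and 32.9 intensity units, and replicates correlated at r = 0.988 for COUP-TFII siRNA and 0.9871 for control siRNA on the log2 scale over all probe sets. Arrays of different groups correlated at 0.975 to 0.9793. All 5 epithelial markers examined lay above the 75th percentile of every array. Of these, EPCAM and CDH1 passed as lower after COUP-TFII siRNA (log2 fold changes −0.24 and −0.30). KRT8 and KRT18 passed as higher (0.16 and 0.13), and KRT19 did not pass. Of 5 immune markers none lay above the array median on all 4 arrays. Of 4 measured androgen-responsive luminal prostate markers, 1 was higher, TMPRSS2, a membrane protease gene, at 391.18 and 392.02 in COUP-TFII siRNA arrays, against 132 and 157 in control siRNA arrays (limma adjusted p = 4.75e-05). KLK3, the prostate-specific antigen gene, was at 25.9 and 17.1 in COUP-TFII siRNA arrays, against 25.6 and 8.56 in control siRNA arrays, and KLK2 and ACP3 did not pass either. The 4 summed to 469 and 459.7 in COUP-TFII siRNA arrays, against 229 and 199 in control siRNA arrays. The part of these markers in the results on HOX genes was not tested. Fibroblast markers summed to 1096 and 1092 in COUP-TFII siRNA arrays, against 776 and 677 in control siRNA arrays. Most of the sum came from COL1A1, which passed as higher (log2 fold change 0.73, limma adjusted p = 0.000141), while PDGFRB had a highest value of 15.0. COL1A2, DCN and LUM had log2 fold changes of −0.17, −0.35 and −0.03, and none of them passed. Of the 5 estimates 2 were positive and 3 negative, with a median of −0.03. Endothelial markers summed to 286 and 232 in COUP-TFII siRNA arrays, against 199 and 208 in control siRNA arrays. Most of that sum came from PECAM1, which lay above the array median on all 4 arrays and did not pass (limma adjusted p = 0.129). VWF, in contrast, had a highest value of 1.76. Integrity of the RNA was gauged by the ACTB control signal at the 3′ end over that at the 5′ end, which was 1.42 and 1.46 in COUP-TFII siRNA arrays, against 1.52 and 1.83 in control siRNA arrays. The same ratio for GAPDH was 0.994 and 0.986, against 0.957 and 0.986.

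The HOXC4 and HOXC5 genes share their annotated start, and HOXC6 has the same outermost start in the RefSeq annotation. HOXB-AS1 is transcribed from within the annotated span of HOXB2, on the opposite strand, and runs into that of HOXB3. These windows are shown because HOXC6, HOXB2 and HOXB3 are among the members with a change described below. The sequences are from RefSeq, build GRCh38.p14, and each runs from 250 bases before the annotated start to 50 bases from it. Lower case marks the bases before the start and capitals mark the 50 bases from the start on.
HOXC4 and HOXC5, chr12:54016638-54016937, plus strand: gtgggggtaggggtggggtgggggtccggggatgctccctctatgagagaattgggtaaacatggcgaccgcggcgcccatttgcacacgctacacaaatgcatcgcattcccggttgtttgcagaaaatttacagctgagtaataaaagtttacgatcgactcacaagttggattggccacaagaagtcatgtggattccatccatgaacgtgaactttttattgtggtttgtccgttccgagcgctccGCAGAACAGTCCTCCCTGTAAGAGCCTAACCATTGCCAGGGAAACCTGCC
HOXB-AS1, chr17:48544101-48544400, plus strand: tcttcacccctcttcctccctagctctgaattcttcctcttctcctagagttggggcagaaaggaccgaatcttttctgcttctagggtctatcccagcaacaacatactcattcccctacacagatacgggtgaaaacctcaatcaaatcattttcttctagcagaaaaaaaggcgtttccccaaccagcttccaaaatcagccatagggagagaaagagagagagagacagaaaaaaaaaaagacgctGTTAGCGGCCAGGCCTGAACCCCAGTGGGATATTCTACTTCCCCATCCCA
The windows were searched on both strands for TAAT, the core that homeodomains bind, and for AGGTCA, the element that COUP-TF receptors and related nuclear receptors bind. The HOXC4 and HOXC5 window held 1 TAAT core and the HOXB-AS1 window 0, and neither held AGGTCA. Of 34943 such windows, 50.3% held TAAT and 13.8% held AGGTCA. RefSeq windows were given for 11 of the 28 measured HOX genes, of which 9 held TAAT and 0 held AGGTCA. No window listed for HOXC6, HOXB13, HOXB2 or HOXB3 themselves is shown. The counts are therefore not to be read as a search of the starts of these genes. A match is a description of the letters and no site of binding, and the absence of one concerns only these 300 bases.

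Levels along the clusters differed mainly between the HOXB and HOXC clusters on one side and the HOXD cluster on the other. Each gene was represented by its brightest probe set not marked as open to cross-hybridisation. Probe sets differ in how strongly they bind their transcript, so levels are set against each array's own median and not ranked between genes. By this measure 12 of the 28 genes lay above the array median on all 4 arrays, against 59.2% of all genes. They were 7 of 10 HOXB genes, 4 of 9 HOXC genes, HOXA2 and 0 of 8 HOXD genes. A stricter bar was the 90th percentile of 17 genes restricted to other tissues, 77.7 to 103.7 units, and 9 members exceeded it on all 4 arrays. Not all of the 17 were dim. TNNI3 read 191 and 179.5 in COUP-TFII siRNA arrays, against 135 and 115 in control siRNA arrays, and MBP was brighter still. The height of the bar depends partly on TNNI3, which passed as higher (limma adjusted p = 0.0212). HOXA2, HOXB7 and HOXC8 lay above the array median but not above this bar.

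**Figure D1:**
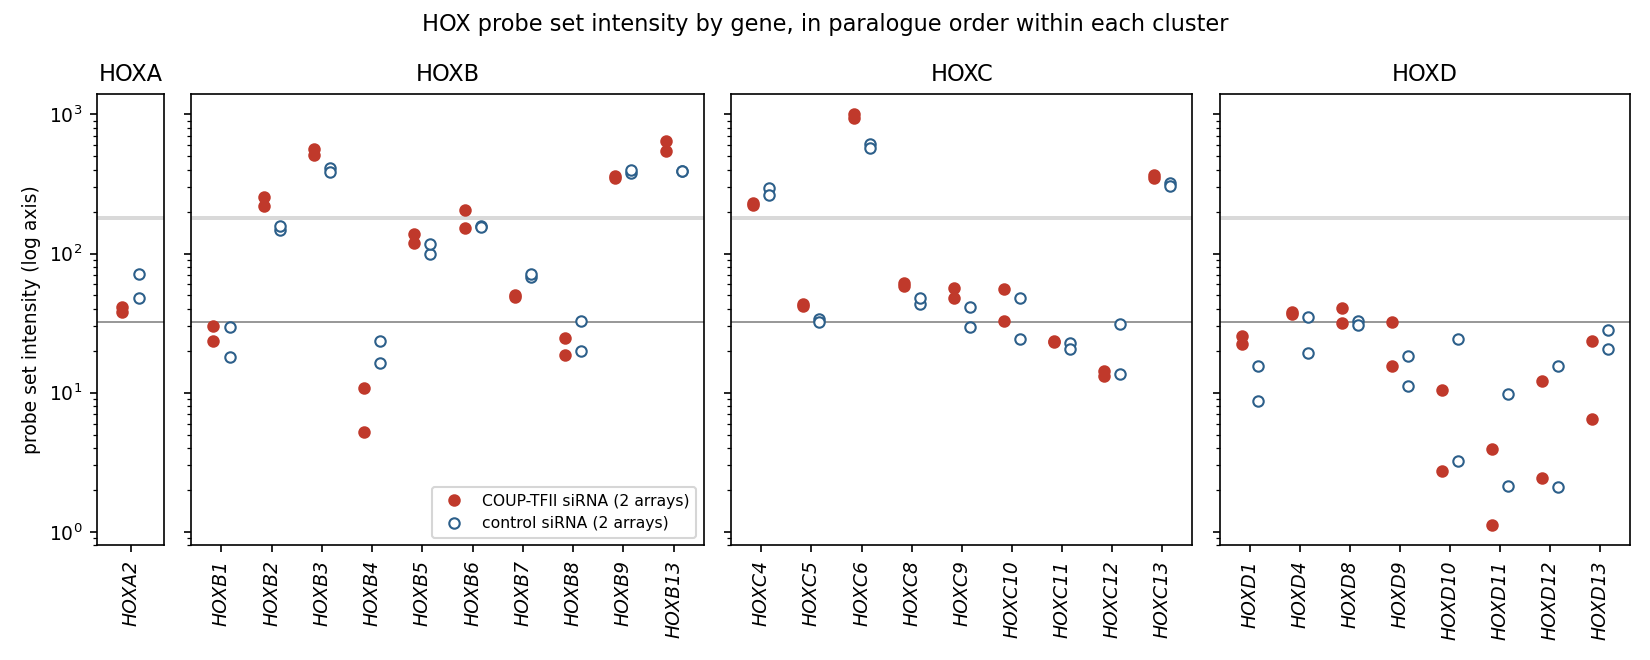
Probe set intensity (log axis) of 28 HOX genes, in paralogue order within each cluster. Each point is 1 array, with filled points for COUP-TFII siRNA to the left of open points for control siRNA, and the dark and light bands are the range of array medians and of array 75th percentiles. HOXC4, HOXC6, HOXC13, HOXB3, HOXB9 and HOXB13 lie above the upper band on all arrays, and all HOXD genes lie near or below the lower band.

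Signal along HOXB was high at the anterior genes HOXB2 and HOXB3, in the middle at HOXB5 and HOXB6, and at the posterior genes HOXB9 and HOXB13. HOXB1, a patterning gene of the hindbrain, did not exceed the array median on any array, at 23.5 and 30.1 with COUP-TFII siRNA and 18.0 and 29.5 with control siRNA. HOXB4, known for expanding blood stem cells, was at 5.24 and 10.8 in COUP-TFII siRNA arrays, against 23.4 and 16.3 in control siRNA arrays. The groups did not overlap for HOXB4, but all 4 values lay below the array median, and the gene did not pass (limma adjusted p = 0.122). HOXB8 was at 24.7 and 18.7 in COUP-TFII siRNA arrays, against 19.8 and 32.6 in control siRNA arrays.

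Along HOXC, the bright probe sets were those of HOXC4, HOXC6 and HOXC13, the last a gene known for hair and nail formation. HOXC5, which lies between HOXC4 and HOXC6, was at 43.1 and 41.9 in COUP-TFII siRNA arrays, against 33.7 and 32.0 in control siRNA arrays. HOXC8 was at 61.8 and 58.5 in COUP-TFII siRNA arrays, against 43.2 and 47.7 in control siRNA arrays. For both genes each array of COUP-TFII siRNA lay above each of control siRNA, and neither passed the test (limma adjusted p = 0.414 for HOXC5 and 0.29 for HOXC8). HOXC9 was at 47.8 and 56.3, against 41.5 and 29.7, and HOXC10 at 55.2 and 32.5, against 24.3 and 47.5 in control siRNA arrays. HOXC11 and HOXC12 stayed below the array median on every array, at 13.2 to 23.5 with COUP-TFII siRNA and 13.7 to 31.0 with control siRNA.

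The HOXD cluster, whose posterior genes shape the digits and the external genitalia, gave little signal. Its 8 measured genes had 15 probe sets, and their highest value was 40.9. HOXD4 was at 38.1 and 36.5 in COUP-TFII siRNA arrays, against 19.4 and 34.7 in control siRNA arrays, and HOXD8 at 31.7 and 40.9, against 32.9 and 30.8. HOXD10, HOXD11, HOXD12 and HOXD13 lay between 1.12 and 23.6 in COUP-TFII siRNA arrays and between 2.09 and 28.1 in control siRNA arrays. HOXD9 was at 32.0 and 15.5, against 11.1 and 18.4, and overlapped. None of the 8 genes passed, and no absence of the transcripts can be read from these intensities. Across the whole set of HOX probe sets, 17 of 44 lay above the array median on all 4 arrays, and 9 lay below 16 units on all 4.

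After COUP-TFII siRNA, 4 HOX genes were higher and 0 lower, namely HOXC6, HOXB13, HOXB2 and HOXB3. The comparison asked which HOX transcripts change when COUP-TFII is targeted. It was tested with limma on log2(intensity + 16) over all genes, with Benjamini-Hochberg adjustment and a threshold of 0.05, and all log2 fold changes are COUP-TFII siRNA minus control siRNA. Of all 19775 genes, 12.7% were called higher and 10.3% lower, 23.0% in all. Thus 4 of 28 higher (14.3%) is close to the share of all genes, and the count shows no response particular to HOX genes. For falls, 0 of 28 compares with that 10.3%, with 2 HOX genes lower at an unadjusted p under 0.05, HOXB4 and HOXC4. The median log2 fold change was 0.14 for the 28 genes and 0.01 for all genes, and 17 of the 28 estimates were positive. Groups did not overlap for 12 genes that were higher and 5 that were lower, against 30.8% and 26.7% of all genes. Of the genes above the array median on all 4 arrays, 20.4% were called higher in the series and 4 of 12 among HOX genes, a share given as a description only. The counts over all genes moved when arrays were centred on the median level of 11 housekeeping genes. That level was the one of PGK1, or of TFRC in control siRNA replicate 2. PGK1 itself passed as lower (log2 fold change −0.26, limma adjusted p = 0.0038), while the median change of the 11 genes was −0.05. With this centring, 6321 genes were higher and 1130 lower, against 2519 and 2039, and 10 HOX genes were higher and 0 lower. It raised the median of all genes by 0.23. Scaling to a common median gave 2745 genes higher and 2071 lower.

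**Figure D2:**
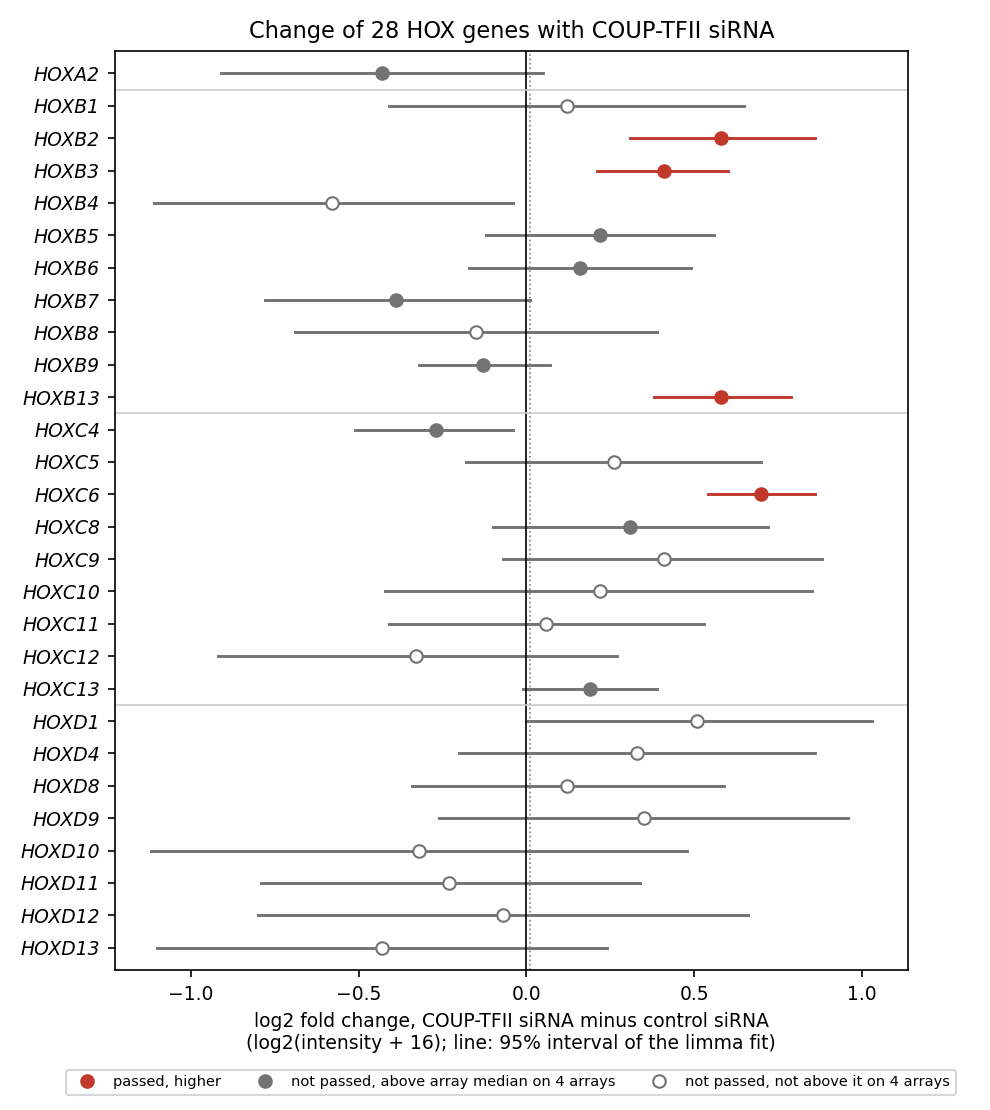
Log2 fold change of 28 HOX genes, COUP-TFII siRNA minus control siRNA, on log2(intensity + 16), with the 95% interval of the limma fit. Red points passed the adjusted threshold, filled grey points are genes above the array median on all 4 arrays, and open points are the dimmer genes. HOXB2, HOXB3, HOXB13 and HOXC6 lie to the right of 0 with intervals that exclude it, and the intervals of the dim HOXD genes are wide. The intervals of HOXB4 and HOXC4 lie to the left of 0, though neither gene passed.

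HOXC6, a homeodomain factor often raised in prostate cancer, had the largest rise of the members. Its probe set read 1006 and 942 in COUP-TFII siRNA arrays, against 613 and 575 in control siRNA arrays. Both COUP-TFII siRNA arrays thus lay well above both control siRNA arrays. The mean was 974 ± 44.7 with COUP-TFII siRNA and 593.9 ± 27.3 with control siRNA (SD, n = 2 each), a ratio of 1.64. The log2 fold change was 0.70 ± 0.07 (SE; limma adjusted p = 0.000157), with a 95% interval of 0.54 to 0.86. Among all genes, 644, or 3.26%, had a larger log2 fold change. HOXC6 passed in each fit with 1 array left out, with log2 fold changes of 0.65 to 0.74 (limma adjusted p = 0.0126 to 0.0168). It had 1 probe set, marked as able to match several transcripts, so its transcripts cannot be told apart. The values are averages over a culture, in which more cells that express a gene and more RNA per cell cannot be told apart. The ACTB ratio given above was lower in the same arrays, and its part in the result was not tested.

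HOXC4, the neighbour that shares the start window shown above, did not rise with HOXC6. It read 223 and 231 in COUP-TFII siRNA arrays, against 293.7 and 263 in control siRNA arrays, without overlap and in the opposite direction. Its log2 fold change was −0.27 ± 0.10 (SE), with an interval of −0.51 to −0.04, and it did not pass (limma adjusted p = 0.0948). It passed only when genes below the median level were left out of the fit (limma adjusted p = 0.0239). After the housekeeping centring described above, its log2 fold change was −0.05 (limma adjusted p = 0.75). The difference between the log2 values of HOXC6 and HOXC4 within an array was 2.10 and 1.96 with COUP-TFII siRNA, against 1.02 and 1.08 with control siRNA, a shift of 0.97. This pair was chosen after its values were seen. An exact two-sided permutation test of 2 arrays against 2 gave p = 0.333, the smallest that it can give. Both genes were already separated between the groups in opposite directions, so no other value was possible and the test decides nothing.

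HOXB13, the posterior factor that works with the androgen receptor in prostate epithelium, rose on both of its probe sets. The brighter one read 640.2 and 549 in COUP-TFII siRNA arrays, against 389 and 393 in control siRNA arrays. The other one read 336 and 306, against 235 and 237. On each, the lower COUP-TFII siRNA array lay above the higher control siRNA array. The log2 fold change of the brighter one was 0.58 ± 0.09 (SE; limma adjusted p = 0.0017), with an interval of 0.38 to 0.79. In the fit over all probe sets the other one changed by 0.42 ± 0.09 (SE; limma adjusted p = 0.0224). HOXB13 just missed the threshold without control siRNA replicate 1 or 2 (limma adjusted p = 0.0505 and 0.0504) and passed without either COUP-TFII siRNA array. Its paralogue HOXC13 read 368 and 351.3 in COUP-TFII siRNA arrays, against 319.8 and 305.3 in control siRNA arrays, and did not pass (log2 fold change 0.19, interval −0.01 to 0.39, limma adjusted p = 0.168).

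HOXB2 and HOXB3, adjacent anterior genes that pattern the hindbrain, rose as well. HOXB2 read 254 and 219.8 in COUP-TFII siRNA arrays, against 147 and 158 in control siRNA arrays, a ratio of means of 1.55. Its log2 fold change was 0.58 ± 0.12 (SE; limma adjusted p = 0.00783), with an interval of 0.31 to 0.86. HOXB3 read 559.7 and 507 in COUP-TFII siRNA arrays, against 412 and 385 in control siRNA arrays, a ratio of 1.34. Its log2 fold change was 0.41 ± 0.09 (SE; limma adjusted p = 0.00855), with an interval of 0.21 to 0.60. For both genes every COUP-TFII siRNA array lay above every control siRNA array. The other HOXB3 probe set was dim, at 36.2 and 15.4 in COUP-TFII siRNA arrays, against 13.7 and 27.8 in control siRNA arrays, and the groups overlapped. With HOXB3 averaged over its probe sets, the log2 fold change was 0.29 (limma adjusted p = 0.313). With 1 array left out, both genes passed only without COUP-TFII siRNA replicate 2, and the others gave limma adjusted p-values of 0.0685 to 0.101 for HOXB2 and 0.066 to 0.117 for HOXB3. With 1 prior variance for all genes, HOXC6 was the only HOX gene that passed, and HOXB2, HOXB3 and HOXB13 had limma adjusted p-values of 0.0619, 0.0945 and 0.0612.

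The other HOXB genes with clear signal gave smaller estimates. HOXB9, a posterior gene, read 361 and 350.4 in COUP-TFII siRNA arrays, against 379 and 399.8 in control siRNA arrays, with a log2 fold change of −0.13 and an interval of −0.32 to 0.07. Its other probe set, open to cross-hybridisation, read 178 and 160.2, against 237 and 205, a log2 fold change of −0.35 (limma adjusted p = 0.102 over all probe sets). Both were lower without overlap and neither passed. HOXB5 read 138 and 118 in COUP-TFII siRNA arrays, against 99.9 and 116 in control siRNA arrays. HOXB6 read 204 and 154, against 158 and 156, so that its higher mean came from COUP-TFII siRNA replicate 1 alone. HOXB7, a gene linked to growth and invasion in other cancers, read 50.3 and 48.9, against 68.3 and 71.3. Another of its probe sets read 61.6 and 51.0, against 53.8 and 44.8, with overlap. The remaining one, open to cross-hybridisation, read 38.9 and 35.0, against 39.7 and 53.0, lower without overlap. The intervals were −0.12 to 0.56 for HOXB5, −0.17 to 0.49 for HOXB6 and −0.78 to 0.01 for HOXB7. HOXA2, which patterns the second pharyngeal arch, read 41.3 and 38.0 in COUP-TFII siRNA arrays, against 48.1 and 71.3 in control siRNA arrays, with a log2 fold change of −0.43 and an interval of −0.91 to 0.05.

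**Figure D3:**
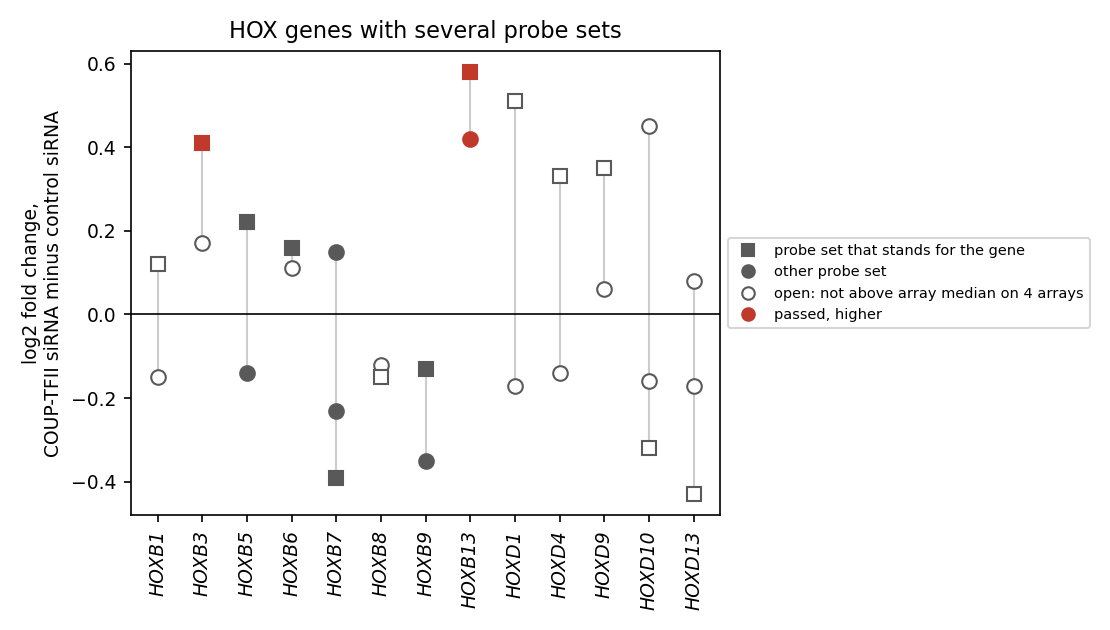
Log2 fold change, COUP-TFII siRNA minus control siRNA, of every probe set of the 13 HOX genes that had more than 1. Squares stand for the probe set that represents the gene, filled points lie above the array median on all 4 arrays, and red points passed the threshold over all probe sets. Both HOXB13 probe sets are red and lie close together, whereas those of HOXB5, HOXB7 and most HOXD genes lie on both sides of 0.

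Probe sets of the same gene share their transcript and are not replicates. At an unadjusted p under 0.05, 6 of the 44 probe sets were higher and 3 lower. After adjustment over all probe sets, 5 were higher and 0 lower, and the 5 belonged to HOXC6, HOXB13, HOXB2 and HOXB3. Of all probe sets, 6.51% were higher and 5.67% lower. Of the 13 genes with several probe sets, 6 had estimates of a single sign and 7 of both signs. The 16 genes that did not lie above the array median on all arrays had log2 fold changes from −0.58 to 0.51, and none passed (limma adjusted p from 0.122 to 0.924). HOXD1 was at 22.3 and 25.7 in COUP-TFII siRNA arrays, against 15.7 and 8.78 in control siRNA arrays, without overlap but below the array median on every array. Its other probe set was at 12.9 and 2.85, against 20.4 and 2.90, and overlapped.

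By position along the axis, 2 of 5 measured genes numbered 1 to 3 rose, 1 of 11 numbered 4 to 8 and 1 of 12 numbered 9 to 13, beside 12.7% of all genes. Of these, 3 of 5, 6 of 11 and 3 of 12 genes lay above the array median on all 4 arrays. By cluster, 3 of 10 HOXB genes, 1 of 9 HOXC genes, 0 of 8 HOXD genes and not the single HOXA gene rose. Differences between these counts, or between paralogues, were not tested. Side by side, the log2 fold changes were 0.70 for HOXC6 and 0.16 for HOXB6, 0.58 for HOXB2 and −0.43 for HOXA2, and 0.58 for HOXB13 and 0.19 for HOXC13. HOXB6 and HOXC13 passed as higher after the housekeeping centring described above, which follows the level of PGK1 or TFRC. Their log2 fold changes were then 0.38 and 0.42 (limma adjusted p = 0.0385 and 0.00172).

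HOTAIR, a long non-coding RNA of the HOXC cluster that binds Polycomb complexes, rose. It was the 1 gene that passed out of 12 measured non-coding and neighbouring genes of the clusters (8.33% higher, beside 12.7% of all genes), and 0 of these were lower. Its 1 probe set read 66.9 and 65.6 in COUP-TFII siRNA arrays, against 35.1 and 21.9 in control siRNA arrays, without overlap. These values were dim, above the array median on 3 of 4 arrays and above the stricter bar of genes restricted to other tissues on 0. The log2 fold change was 0.90 ± 0.21 (SE; limma adjusted p = 0.0148). HOTAIR did not pass with 1 prior variance for all genes (limma adjusted p = 0.0602). It passed in 1 of 4 fits with 1 array left out, the one without control siRNA replicate 1 (limma adjusted p = 0.0415), and ranged up to 0.147 in the others. HOXC11, whose annotated span HOTAIR overlaps, had a log2 fold change of 0.06. HOXB-AS1, the antisense gene of the HOXB2 and HOXB3 region shown above, was at 37.6 and 24.7 in COUP-TFII siRNA arrays, against 12.0 and 23.8 in control siRNA arrays, and did not pass (limma adjusted p = 0.24). HOTTIP, at the posterior end of HOXA, was at 62.6 and 48.1, against 39.1 and 37.4, and did not pass (limma adjusted p = 0.219). The median of the 12 was −0.12.

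Among the TALE cofactors, which bind DNA beside HOX proteins, 2 of 8 measured genes rose and 0 fell, with a median of 0.13, beside 12.7% and 10.3% of all genes. The array median was exceeded on all 4 arrays by 6 of the 8, and of all such genes 20.4% were higher and 16.4% lower. PBX2 read 709 and 617 in COUP-TFII siRNA arrays, against 426 and 446 in control siRNA arrays (log2 fold change 0.58 ± 0.09, SE; limma adjusted p = 0.00133). MEIS1, a partner of HOXB13 in prostate cells, read 172 and 197, against 122 and 119.8 (0.55 ± 0.13, SE; limma adjusted p = 0.0144). For both genes the groups did not overlap. MEIS1 passed in 0 of the 4 fits on 3 arrays (limma adjusted p = 0.0627 to 0.133), and PBX2 averaged over its probe sets changed by 0.26 (limma adjusted p = 0.0977). GMNN, which encodes geminin, an inhibitor of replication licensing that also binds HOX proteins, fell to 586 and 566 in COUP-TFII siRNA arrays, against 1137 and 1155 in control siRNA arrays (limma adjusted p = 1.35e-05). The CDX genes, homeobox activators of HOX clusters and the rest of that list, had a highest value of 34.1, and none of the 3 passed.

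**Figure D4:**
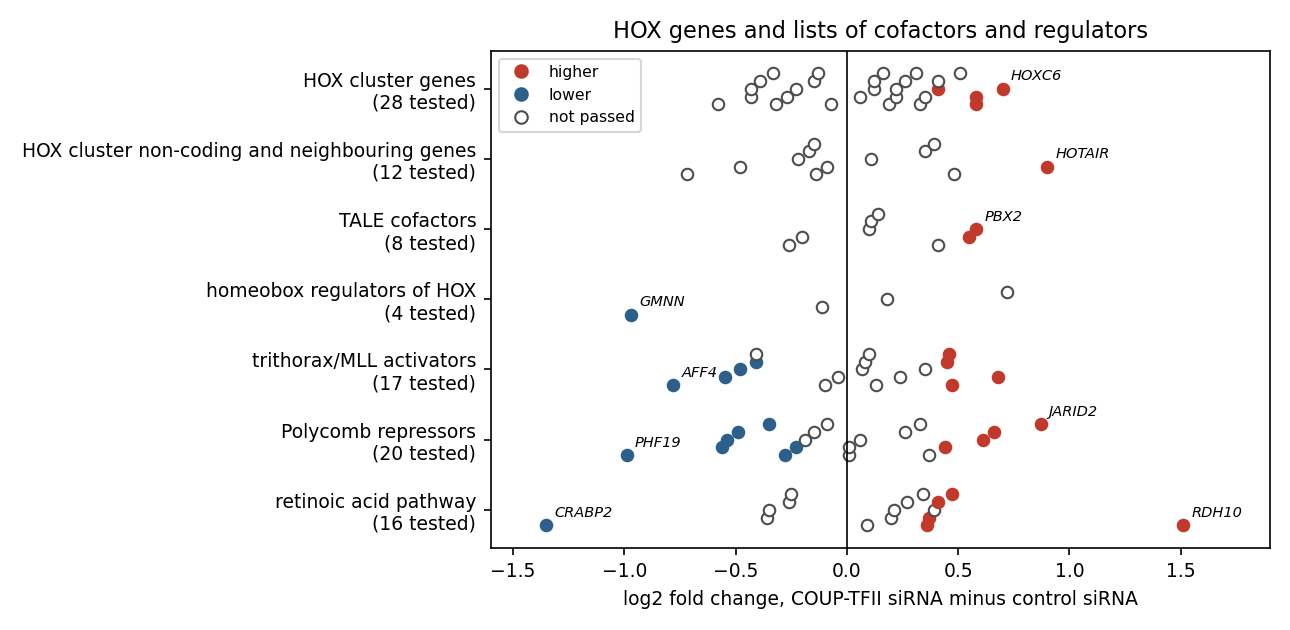
Log2 fold change, COUP-TFII siRNA minus control siRNA, of the HOX genes and of 6 lists of neighbours, cofactors and regulators. Each point is 1 gene, red where it passed as higher, blue where it passed as lower and open where it did not pass. The HOX points cluster around 0 with 4 red points, while RDH10 lies farthest to the right and CRABP2 farthest to the left.

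Chromatin regulators of the HOX clusters moved in both directions. Of 20 Polycomb genes measured, 4 rose and 7 fell (20% and 35%), with a median of −0.04. All 20 lay above the array median on all 4 arrays, and of all such genes 20.4% were higher and 16.4% lower. JARID2, an accessory subunit of PRC2, read 936 and 816 in COUP-TFII siRNA arrays, against 498 and 447 in control siRNA arrays (0.87 ± 0.09, SE; limma adjusted p = 0.000169). PHF19, another accessory subunit, read 497 and 461, against 945 and 989 (−0.99 ± 0.07, SE; limma adjusted p = 2.44e-05). PHC1, a component of PRC1, read 203 and 170.4, against 123 and 101 (log2 fold change 0.66). CBX7, which recruits PRC1 to chromatin, read 214 and 163, against 103 and 134 (log2 fold change 0.61). Both rose, and neither passed once an array was dropped (lowest limma adjusted p of 0.0541 and 0.0847). Of 17 trithorax and related activators, 4 rose and 4 fell (23.5% each), with a median of 0.08. All 17 lay above the array median on all 4 arrays, and these shares are close to those of all such genes given above. AFF4, a scaffold of the super elongation complex, read 425 and 380.3, against 775 and 638 (−0.78 ± 0.10, SE; limma adjusted p = 0.000686), yet its 8 probe sets averaged to 0.02 (limma adjusted p = 0.963). MLLT3, a reader of acylated histones, rose by 0.68 on the log2 scale, with 124 and 89.4, against 68.4 and 51.6. PSIP1, which tethers MLL complexes to chromatin, fell by 0.55, with 292 and 325, against 471 and 448. WDR5, a core subunit of those complexes, fell by 0.48, with 168 and 186, against 258 and 249. Averaged over their probe sets, MLLT3 changed by 0.37 and WDR5 by −0.16 (limma adjusted p = 0.218 and 0.321). MLLT3 and WDR5 passed in none of the fits on 3 arrays (lowest limma adjusted p of 0.0895 and 0.0531), nor PSIP1 without control siRNA replicate 1 (limma adjusted p = 0.0611).

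Retinoic acid switches on anterior HOX genes through its nuclear receptors. Of 16 measured genes of that pathway, 5 rose and 1 fell (31.2% and 6.25%), with a median of 0.24, beside 12.7% and 10.3% of all genes. The array median was exceeded on all 4 arrays by 11 of the 16, and of all such genes 20.4% were higher and 16.4% lower. RDH10, which makes retinaldehyde from retinol, read 4340.4 and 3920.3 in COUP-TFII siRNA arrays, against 1509.8 and 1363 in control siRNA arrays (1.51 ± 0.07, SE; limma adjusted p = 2.5e-06). CRABP2, which carries retinoic acid to the nucleus, read 113 and 106, against 307 and 299.9 (−1.35 ± 0.11, SE; limma adjusted p = 5.06e-05). Both kept their call with each array left out. NRIP1, a corepressor of nuclear receptors, rose by 0.47 on the log2 scale, with 2909.7 and 2635, against 2069 and 1932. RXRB, a shared partner of these receptors, rose by 0.41, with 535 and 485, against 385 and 372. With 1 array left out, RXRB passed only without COUP-TFII siRNA replicate 2 (limma adjusted p = 0.0349), and averaged over its probe sets it changed by 0.09 (limma adjusted p = 0.676). RARA, RARB and RARG, the retinoic acid receptors, had log2 fold changes of −0.25, −0.26 and −0.35, and none passed.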

How the data were processed

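Total RNA was amplified and biotin-labelled for Affymetrix arrays with 1 colour, as the labels' protocols state. The authors deposited 1 intensity per probe set and array, linear and unlogged, for 54675 probe sets, spanning 0.61 to 15890. How probes were summarised and arrays normalized is not given in the sources used. No further scaling was applied, since array medians differed by 3.66%, under a limit of 5%. The 62 control probe sets were left out. The platform table named 1 gene for 41091 probe sets. Symbols were updated through Entrez identifiers (41037 matched). Probe sets for HOXD4 shared with HOXD3 (3) were not used.

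Values were tested as log2(value + 16), which understates changes of dim genes, with limma 3.58.1 in R 4.3.3 (intensity trend, no replicate block, Benjamini-Hochberg adjustment over all genes, or over all probe sets). After moderation the fits had 8.78 and 7.11 degrees of freedom. Figures used matplotlib 3.10.9.

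Members, lists and tests were chosen with earlier results of these data known. Every member is accounted for; array values are given for members that passed or lay above the array median on all arrays, and for up to 4 passing genes of each list. The lists held 9 TALE, 17 trithorax, 24 Polycomb, 19 cluster non-coding and neighbouring, 4 homeobox regulator and 19 retinoic acid genes; 8, 17, 20, 12, 4 and 16 were measured. The alternatives were median scaling, quantile normalization, housekeeping centring, pseudocounts of 1 and 64, cross-hybridising probe sets allowed, 1 prior variance, averaged probe sets, omission of dim features, a replicate block, a threshold of 0.01 and leaving out each array.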

Additional observations from a re-analysis of the deposited data

How the results depend on the processing

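With 2 arrays per group, calls depended on the settings, among them the centring of the arrays and the estimate of the spread. The number of HOX genes called higher, 4, was 10 after centring on housekeeping genes and 1 with 1 prior variance, and 1 to 4 with 1 array left out. The number called lower, 0, was 1 (HOXC4) with features below the median left out, and 0 with each array left out. Over HOX probe sets, 5 higher became 8 with that centring, 0 with 1 prior variance and 2 at an adjusted p threshold of 0.01, and 0 to 2 with 1 array left out, where 0 were lower. Leaving out features below the median gave 1 lower probe set. In the 6 lists together, 16 higher became 36 with centring, 2 with 1 prior variance, 9 with averaged probe sets and 7 at 0.01, and 4 to 8 with 1 array left out. The 13 lower became 8, 3 and 7 under the first 3 of these settings, and 5 to 10 with 1 array left out. Over all genes, 2519 higher became 6321 with centring, 754 with 1 prior variance, 1631 with averaged probe sets and 1450 at 0.01, and 882 to 1222 with 1 array left out. The 2039 lower became 1130 with centring, 814 with 1 prior variance and 1318 at 0.01, and 886 to 1370 with 1 array left out. Over all probe sets, 3554 higher became 11581 with centring, 5483 without dim features, 172 with 1 prior variance and 1638 at 0.01, and 314 to 1017 with 1 array left out, and 3094 lower became 1972, 355 and 1762 under centring, 1 prior variance and 0.01, and 403 to 1522 with 1 array left out. The centring followed the level of PGK1 or TFRC, as given above. The cause of these shifts was not tested. The number of HOX genes above the bar, 12, was 6 at the array 75th percentile and 12 to 14 with 1 array left out.

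With the replicate block the counts were 4 HOX genes higher and 0 lower and 5 HOX probe sets higher and 0 lower, and no count moved by over 1.5 times. Over all genes the block gave 2849 higher and 2277 lower, against 2519 and 2039. Differences between replicates 1 and 2 correlated at 0.02 between the groups across genes. That value cannot decide whether same-numbered arrays were paired, since scatter of dim genes can hide a shared effect, and the labels do not state it. Directions reversed in 4 of 415 refits of the 28 genes followed individually, none of them a HOX gene that passed. These were HOXB5 at −0.14 with cross-hybridising probe sets allowed, HOXB6 at −0.03 without COUP-TFII siRNA replicate 1 (−0.03 to 0.35 with each array left out), HOXB9 at 0.10 after centring and AFF4 at 0.02 with averaged probe sets.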
